A study of Drosophila melanogaster with 3 samples.

Results

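The 47 genes described here are the Drosophila homeobox genes on a fixed list that leaves out the Hox genes and the Pax genes. Its members bcd, zen and zen2 lie in the region of the Hox cluster. All 47 were found among the 13945 protein-coding genes annotated on the 6 chromosome arms used, and they were listed by gene family. The list was drawn up with earlier results of these data known. Homeobox genes encode transcription factors that bind DNA through a homeodomain, a fold of helices whose recognition helix reads short AT-rich sites, often with a TAAT core. In the fly embryo they are known for setting position along the body axes and for fixing the identity of neurons, muscles and sense organs. Many act on each other's genes, so a map of one homeodomain protein raises the question of which other homeobox genes carry its sites.

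The map was made by chromatin immunoprecipitation and sequencing (ChIP-seq), which recovers DNA fragments bound by a protein. The protein was eyegone (eyg), a Pax-family factor with a homeodomain, known for promoting growth of the eye and for forming the ducts of the salivary glands. All samples came from the strain eyg-GFP, a transgenic fly line with green fluorescent protein fused to the C-terminal end of eyg, and were whole embryos 0 to 24 h old of both sexes, pooled, precipitated with an antibody against GFP. The 3 biological replicates form 1 group with no second condition, so no test between groups could be made and each value below is a description. Sites from embryos of such mixed age cannot be placed in a stage or a cell type, and the line has 1 tagged protein without an untagged line in the files used. A site means here a peak of the authors' optimal list, which holds 2537 regions, and a gene carries it when the peak's summit lies within 1 kb of a transcription start site (TSS) of the gene. A candidate is a region of the longer lists of the pool (23721 regions) or of replicates 1, 2 and 3 (30000, 30000 and 24609 regions), which by their name hold background beside peaks. The lists give a signal value per region on an unstated scale. The optimal list ends at a signal of 108.3 in the pool.

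Sites were found near few of the homeobox genes. A summit lay within 1 kb of a TSS of ro and of NK7.1, 2 of 47 members (4.26%), where 14.7% of all protein-coding genes had one. With the gene body and 2 kb around it counted, ct and zfh1 were added, making 4 of 47 members (8.51%) against 23.9% of all genes. In the gene body alone, with no flank, 3 of 47 members (NK7.1, ct and zfh1, 6.38%) had an optimal summit, against 8.43% of all genes. The shares then lay much closer, but this count was not split by gene span, and all 3 genes span 20 kb or more. The 43 members other than ro, NK7.1, ct and zfh1 had no optimal peak in the body or within 2 kb. The homeobox genes were long, with a median span of 9.33 kb against 2.17 kb for all protein-coding genes, and long genes give a summit more room. Within classes of span the members' counts also lay under the shares over all genes. Of 16 members shorter than 5 kb, 1 carried an optimal peak in its body or within 2 kb (ro), where 19.1% of all genes of that span did. Of 15 members of 5 to 20 kb, 0 did, where the share over all genes was 35.7%. Of 16 members of 20 kb and more, 3 did (NK7.1, ct and zfh1), where the share was 44.7%. Counted by length, the members' bodies with 2 kb around held 8 optimal peaks in 956 kb, which is 0.837 per 100 kb, against 2.31 per 100 kb over all protein-coding genes.

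The 4 genes with peaks have different known roles. The gene ro (rough, FBgn0003267) is needed for the identity of photoreceptors in the eye. NK7.1 (FBgn0024321) encodes a homeodomain protein of the NK family. The gene ct (cut, FBgn0004198) sets the identity of external sense organs and acts at the wing margin. The gene zfh1 (FBgn0004606), whose protein has zinc fingers beside its homeodomain, acts in mesoderm and motor neurons. They carried 8 optimal peaks in all, 4 at NK7.1, 2 at ct and 1 each at ro and zfh1, and each peak had the full width of 424 bp that the lists give to 91.2% of optimal peaks.

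NK7.1 lies on the minus strand of 3R at 14329413 to 14372951 (dm6), spans 43.5 kb and has 3 annotated TSSs. Its strongest peak, 3R:14373211-14373634, had its summit between genes, 472 bp upstream of the outermost TSS. The pooled signal of this peak was 266.6, at rank 428 of the pool, and the replicate signals were 63.7, 99.2 and 104.0, at ranks 584, 373 and 436. It therefore ranked high in each of the 3 replicates. The second peak in order of signal, 3R:14370469-14370892, lay in an intron, 673 bp upstream of another TSS of the gene. Its pooled signal was 142.8 at rank 1518, with replicate signals of 48.7, 36.3 and 58.6 at ranks 1086, 3195 and 1353, so that replicate 2 placed it below the other replicates. The sequences around these summits are printed because they are the 2 sites that put NK7.1 among the genes with a site near a TSS. Each window is centred on the summit and was read on the plus strand of dm6 from the RefSeq genome.
NK7.1, 3R:14373363-14373483: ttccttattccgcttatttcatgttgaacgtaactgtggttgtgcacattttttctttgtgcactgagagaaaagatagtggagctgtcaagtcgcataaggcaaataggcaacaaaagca
NK7.1, 3R:14370621-14370741: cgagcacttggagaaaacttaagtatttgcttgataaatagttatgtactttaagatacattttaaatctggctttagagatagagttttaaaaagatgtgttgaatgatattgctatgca
Neither window held TAAT or its reverse complement ATTA, which would have been printed in capitals. The window of the stronger peak held the reverse complement of TGACAG, a core motif of TALE homeodomain proteins, and the letters GAGAG. The window of the second peak held the reverse complement of CAAGTG, a motif known from NK-family proteins. The stronger peak also held, 93 bp from its summit and outside the printed window, TAAT and ATTA with 2 bases between them, the palindrome known as a dimer site of paired-type homeodomains. It is shown with its neighbouring bases, the TAAT and the ATTA in capitals, and was picked out after its presence was seen.
NK7.1, 3R:14373316-14373345: tcctaaaaaaTAATaaATTActgggcagag

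The other peaks at NK7.1 lay next to TSSs of other genes. The peak at 3R:14361631-14362054 was in an intron of NK7.1, 7974 bp downstream of the nearest TSS of the gene, but 57 bp from a TSS of Dnaaf5, a gene for an assembly factor of axonemal dynein. Its pooled signal was 127.6 at rank 1873, and its replicate signals were 36.2, 55.9 and 34.3 at ranks 2136, 1331 and 3652. The peak at 3R:14327761-14328184 was beyond the 3′ end of NK7.1 and within 1 kb of TSSs of other genes, among them ATPsynE, which encodes a subunit of ATP synthase. Its summit lay 41844 bp from the nearest TSS of NK7.1 and 78 bp from the nearest TSS of any gene. This peak was the lowest of the 8, with a pooled signal of 109.4 at rank 2487 and replicate signals of 29.4, 42.2 and 36.4 at ranks 3537, 2338 and 3293. From position alone the gene to which these 2 peaks belong cannot be told apart. NK7.1 also held 19 pooled candidates below the optimal list in its body and 2 kb around, with signals from 37.7 to 90.6 and a median of 51.3, and its total of 23 was the highest of the 47 members.

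**Figure D1:**
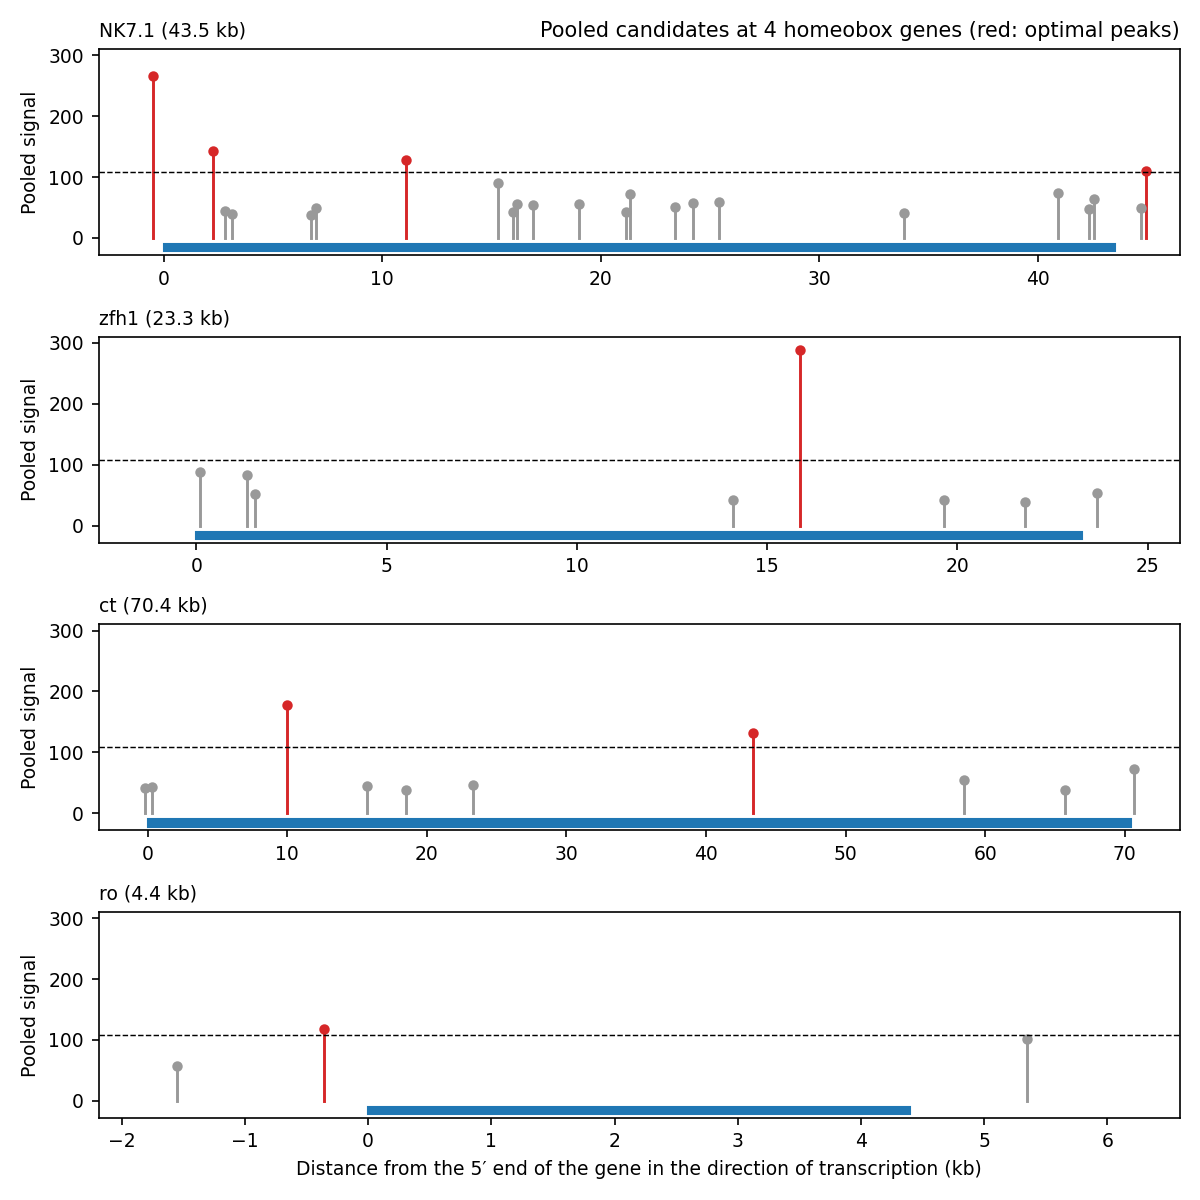
Pooled candidates at NK7.1, zfh1, ct and ro, plotted by distance from the gene's 5′ end in the direction of transcription (kb) and by pooled signal on the authors' scale. Red stems are the 8 optimal peaks, grey stems are candidates below that list, the blue bar is the gene and the dashed line is the lowest optimal signal, 108.3. NK7.1 holds 4 red stems, the tallest of them upstream of its 5′ end, and ct holds 2, both inside the gene.

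The gene zfh1 lies on the plus strand of 3R at 30765926 to 30789202 and spans 23.3 kb. Its peak, 3R:30781587-30782010, had the highest signal of the 8, 289.1 in the pool at rank 359. The replicate signals were 68.9, 108.9 and 107.7 at ranks 495, 297 and 406, high in each of the 3. The summit lay in an intron, 1459 bp upstream of the nearer of the gene's 2 TSSs, and also in an intron of the antisense RNA gene asRNA:CR45189. At the other TSS, at the 5′ end of zfh1, a candidate 95 bp away reached a pooled signal of 88.1, below the optimal list.

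The gene ct lies on the plus strand of X at 7608428 to 7678859 and, at 70.4 kb, was the longest of the 47. Its stronger peak, X:7618206-7618629, lay in an intron 9270 bp downstream of the nearest TSS. The pooled signal was 178.1 at rank 1004, and the replicate signals were 46.0, 62.8 and 69.4 at ranks 1221, 1020 and 1016. The replicates placed it at nearly the same rank. The other peak, X:7651549-7651972, also lay in an intron, 19539 bp downstream of the nearest TSS, with a pooled signal of 131.0 at rank 1785 and replicate signals of 36.2, 50.8 and 40.6 at ranks 2135, 1609 and 2674. Near the TSSs of ct the highest pooled candidate had a signal of 46.5. The window centred on the summit of the stronger peak, plus strand of dm6, is shown because TAAT and ATTA both occurred in it. Capitals mark these letters, which overlap in ATTAAT.
ct, X:7618358-7618478: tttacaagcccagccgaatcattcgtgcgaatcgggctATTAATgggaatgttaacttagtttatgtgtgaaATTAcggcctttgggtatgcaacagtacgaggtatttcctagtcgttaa

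The gene ro lies on the minus strand of 3R at 26876771 to 26881171 and spans 4.40 kb. Its peak, 3R:26881316-26881739, was between genes, 357 bp upstream of a TSS of ro and 206 bp from a TSS of T48, a gene that acts in gastrulation, so that the nearer gene was T48. The pooled signal was 118.2 at rank 2161, and the replicate signals were 48.8, 57.0 and 26.3 at ranks 1075, 1263 and 6267. Replicate 3 placed it far below the other replicates, and its summit there lay 102 bp from that of the pool. Beyond the 3′ end of ro a candidate with a pooled signal of 101.8 at rank 2872 stayed just outside the optimal list, and another candidate, upstream of the gene, had a signal of 57.1. The window around the optimal summit, plus strand of dm6, is shown because ro is, beside NK7.1, the other member with a site near a TSS. It held no TAAT or ATTA.
ro, 3R:26881468-26881588: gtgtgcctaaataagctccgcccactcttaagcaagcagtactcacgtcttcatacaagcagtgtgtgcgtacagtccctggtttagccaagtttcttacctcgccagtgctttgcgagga

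The 8 peaks had signals from 109.4 to 289.1 in the pool. Their median pooled signal was 136.9, where that of all 2537 optimal peaks was 156.2. Of the 8, 5 (62.5%) lay within 1 kb of a TSS of any gene, as did 67.2% of all optimal peaks. Their median GC content in the 201 bases around the summit was 39.1%, against 37.8% over all. Each of the 8 summits lay inside a candidate of every replicate. A stricter count took the 2537 calls of highest signal in each replicate. Of the 8 peaks 3 were among these in all 3 replicates, 4 in 2 replicates, 1 in 1 replicate and 0 in none, where the shares over all optimal peaks were 57.9%, 27.6%, 13.8% and 0.788%. By replicate the shares of the 8 were 87.5%, 87.5% and 50%, with a mean of 75% ± 21.7 (SD, n = 3), and those of all optimal peaks were 77.0%, 82.1% and 83.4%, with a mean of 80.8% ± 3.41 (SD, n = 3). The difference between the means was smaller than the spread of the members' shares over replicates, and replicate 3 gave the lowest share. The optimal list was made from the same replicates, so these shares are no independent check.

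**Figure D2:**
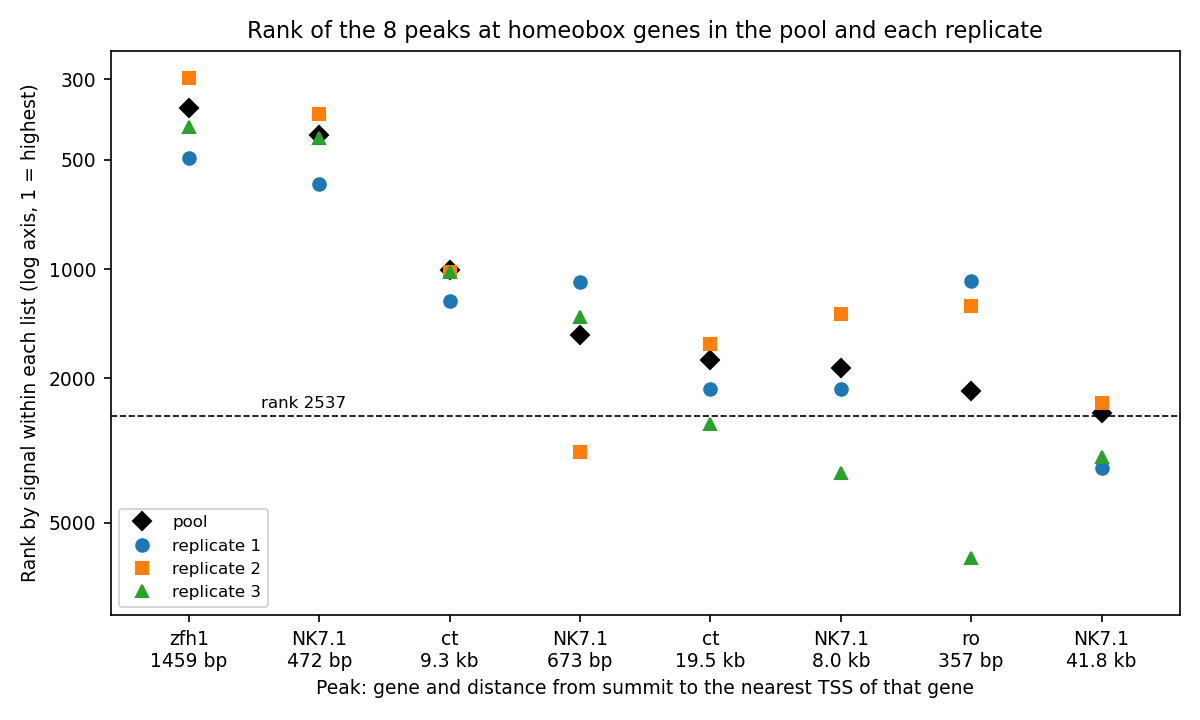
Rank by signal of the 8 optimal peaks at homeobox genes in the pool (diamonds) and in replicates 1 (circles), 2 (squares) and 3 (triangles), on a log axis with rank 1 at the top; the dashed line is rank 2537, the length of the optimal list. The zfh1 peak, the strongest NK7.1 peak and the stronger ct peak lie above the line in all 3 replicates, and the ro peak falls to rank 6267 in replicate 3.

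The homeodomain motifs searched occurred at some of these summits. Within 100 bp of the summit, with both strands searched, TAATTA occurred in 1 of the 8 peaks (the NK7.1 peak at Dnaaf5) and in 13.7% of all optimal peaks. TAAT and ATTA spaced by 2 bases occurred in 1 of 8, the promoter peak of NK7.1, and in 1.66% of all, and with 3 bases between them in 0 of 8 and 1.66%. TAATCC, known as a site of bcd and oc proteins, occurred in 0 of 8 and 5.52% of all, and ATGCAAAT, the octamer known from POU proteins, in 0 of 8 and 2.92%. CAAGTG, known from NK-family proteins, occurred in 1 of 8, a peak at NK7.1, and 12.4% of all. TGACAG occurred in 2 of 8, both at NK7.1, and 6.66% of all. These are counts of letters in windows of 201 bases, in which TAATTA and the spaced palindromes can share bases, and they do not show who binds there. Of the motifs of general promoter and early factors, GAGAG occurred in 2 of 8 peaks and 25.5% of all, TATCGATA in 0 of 8 and 4.22%, and CAGGTAG in 0 of 8 and 0.867%.

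By homeobox class the peaks were spread thinly. The ANTP class, with 24 members the largest, held 5 of the 8 peaks at 2 genes, ro and NK7.1. Among the 5 are the ro peak, nearer to T48, and the 2 NK7.1 peaks next to TSSs of other genes. Of the 2 CUT class genes ct held 2 peaks, and of the 2 zinc finger class genes zfh1 held 1. The 8 PRD class genes without a paired domain, the 4 POU genes, the 3 LIM genes, the 3 TALE genes and the SINE class gene Six4 held 0 peaks. Over all protein-coding genes 23.9% had an optimal peak in the body or within 2 kb, and nothing is read from a count of 0 in classes this small. The 12 genes of the 6 paralog pairs (B-H1 and B-H2, lbe and lbl, zen and zen2, ems and E5, pdm2 and nub, achi and vis) also held 0 peaks. Both genes of a pair lie in the same gap between optimal peaks, so they are not separate observations.

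Most of the homeobox genes had candidates of the longer lists. A pooled candidate lay within 1 kb of a TSS at 25 of 47 members (53.2%), where 56.4% of all genes had one, and in the body or within 2 kb at 42 members (89.4%), against 75.7%. By span, 13 of 16 members shorter than 5 kb had such a candidate, against 70% of all genes of that span, 15 of 15 of 5 to 20 kb, against 91.5%, and 14 of 16 of 20 kb and more, against 96.2%. Per 100 kb of gene body with 2 kb around there were 14.9 pooled candidates at the members and 20.5 over all genes. In replicates 1, 2 and 3, 30, 28 and 28 members had a candidate near a TSS, where the shares over all genes were 61%, 61.8% and 56.5%. Of the 47 members, 19 had one in all 3 replicates (40.4%, against 42.8% of all genes) and 10 in 2 (21.3%, against 16.9%). A further 9 had one in 1 replicate (19.1%, against 16.9%) and 9 in none (19.1%, against 23.3%). These shares lay near those over all genes. When only the 2537 highest calls of a replicate were taken, replicate 1 had 3 members with a call near a TSS (ro, NK7.1 and pdm3, against 14.6% of all genes), replicate 2 had 2 (ro and NK7.1, against 14.4%) and replicate 3 had 2 (Dll and NK7.1, against 15%). NK7.1 was the member found in all 3.

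The 23 members with a candidate near a TSS but no site there were led by Dll and bcd. Dll (Distal-less), which is needed for limb development, had a pooled candidate with a signal of 91.7 at 49 bp from its TSS. Its replicate signals were 30.7, 17.5 and 44.5 at ranks 3173, 16516 and 2274, so that replicate 2 placed it low. The bcd gene, which encodes the anterior morphogen bicoid, had a pooled candidate of 89.7 at 178 bp. Its replicate signals were 32.8, 18.7 and 29.2 at ranks 2679, 14221 and 4972, so that replicate 2 placed it low. The candidate of zfh1, described above, was the next. The POU gene pdm3, known in olfactory neurons, had a pooled candidate of 81.7 at 208 bp. Its replicate signals were 34.1, 30.4 and 15.5 at ranks 2465, 4655 and 20708, so that replicate 3 placed it low. The LIM gene Lim3, of motor neuron identity, followed with 74.9, unpg with 72.9 and Lim1 with 68.9. Below them were exex, also of motor neurons, with 63.1, the neuroblast gene nub and the head gene oc with 62.4 each, and HGTX with 61.0. These values lay under the lowest optimal signal and are not called sites. The median of the highest pooled signal near a TSS was 61.0 over the 25 members that had a candidate and 70.0 over the 7861 genes that did.

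**Figure D3:**
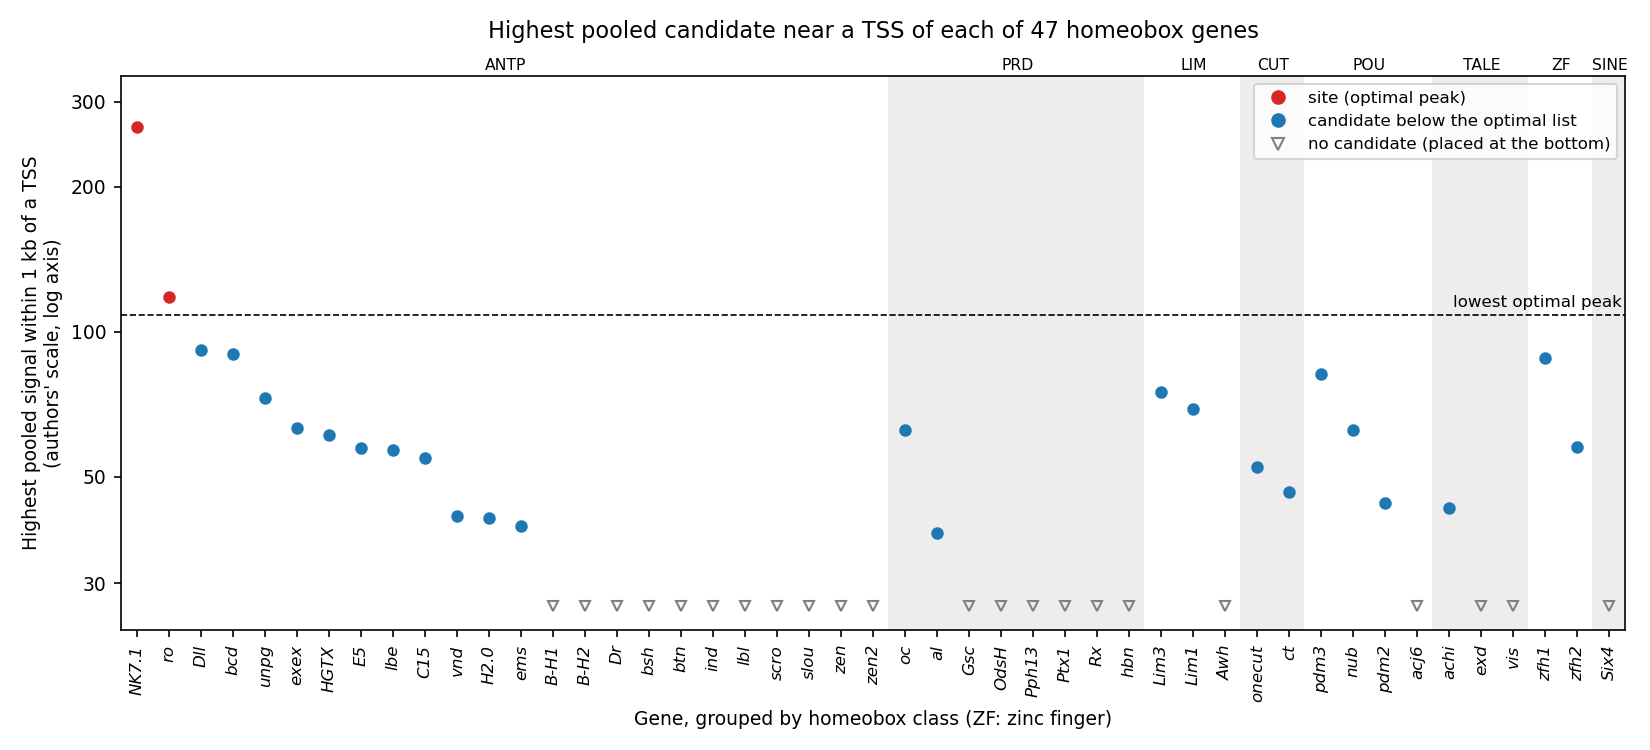
Highest pooled signal of a candidate within 1 kb of a TSS for each of the 47 homeobox genes, on the authors' scale and a log axis, grouped by homeobox class. Red points are optimal peaks, blue points are candidates below that list, open triangles at the bottom are genes with no pooled candidate there, and the dashed line is the lowest optimal signal, 108.3. NK7.1 and ro are the red points, and 22 genes have no pooled candidate within 1 kb.

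The 22 members with no pooled candidate near a TSS made up 46.8% of the members, near the 43.6% of all genes. Among them were zen and zen2 of the dorsal side, ind and Dr of the columns of the neuroectoderm, the muscle identity genes slou and lbl, the Bar genes B-H1 and B-H2, and exd, the cofactor of Hox proteins. The others were bsh, btn, scro, Gsc, OdsH, Pph13, Ptx1, Rx, hbn, Awh, acj6, vis and Six4. Of these 22, zen2, ind, scro, Pph13 and Rx had no pooled candidate in the gene body or within 2 kb either. In the replicate lists, which hold background, 13 of the 22 did have a candidate near a TSS. The same share over all genes without a pooled candidate was not counted, so nothing is read from it. The 13 were scro and Ptx1 in all 3 replicates, B-H2, btn and vis in 2, and B-H1, lbl, Dr, Gsc, Awh, acj6, exd and Six4 in 1. The candidates of scro ranked 25706, 26836 and 11345 in replicates 1, 2 and 3, and those of Ptx1 12707, 6544 and 21324. The remaining members with a candidate near a TSS were C15, lbe, E5, vnd, H2.0, ems, al, onecut, pdm2, achi and zfh2, beside ct.

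Most of the 47 genes lay far from any optimal peak. The median distance from a TSS to the nearest optimal summit was 35.4 kb, against 13.5 kb for all protein-coding genes. Within 5 kb there were 6 members (12.8%, against 29.1% of all genes), within 10 kb 9 (19.1%, against 42.8%), within 20 kb 16 (34.0%, against 60.1%) and within 50 kb 32 (68.1%, against 81.7%). The members' share thus lay under that of all genes at each distance. The farthest was scro, 1629 kb from the nearest optimal summit. It lies beyond the last optimal summit of its arm, and the largest distance over all protein-coding genes was 5648 kb.

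**Figure D4:**
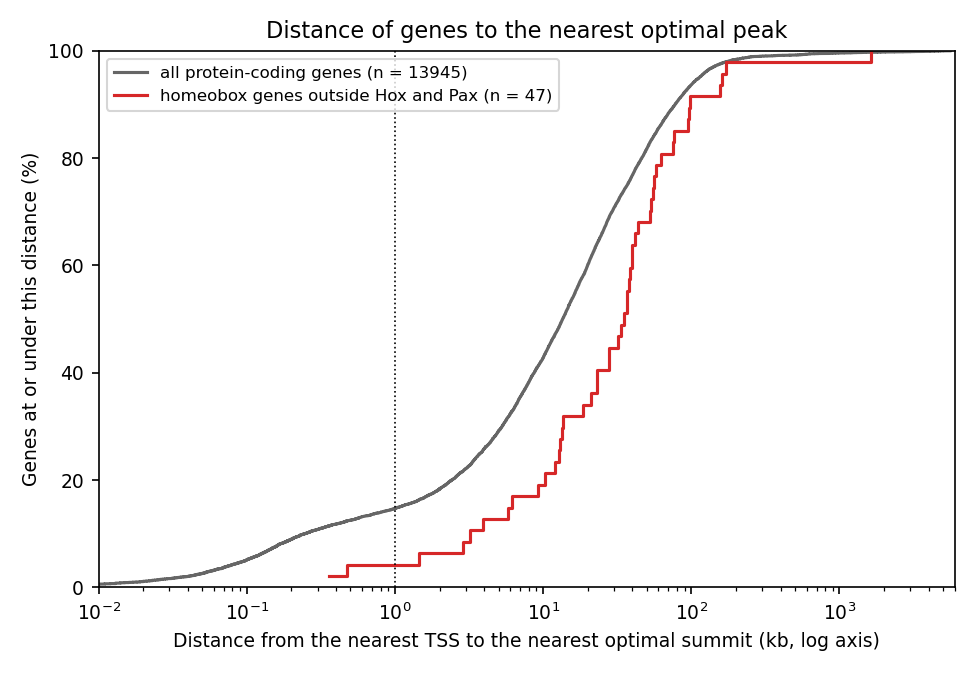
Cumulative share of genes (%) by distance from the nearest TSS of a gene to the nearest optimal summit (kb, log axis, the smallest distances drawn at the left edge), for the 47 homeobox genes (red) and all 13945 protein-coding genes (grey). The dotted line is 1 kb. The red line lies below the grey one from 1 kb to 50 kb, with medians of 35.4 and 13.5 kb.

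The stretches without optimal peaks were long around these genes. Between the optimal summits flanking a gene's 5′ end, the median gap was 122.6 kb over 46 members and 88.3 kb over 13735 protein-coding genes, and 35 members (74.5%) against 44.9% of all genes sat in a gap of over 100 kb. The gaps named next were chosen after their values were seen. The longest, 486.8 kb on 3R, held bcd, zen and zen2 among 39 protein-coding genes, with 5 other homeobox genes of the Hox cluster region. B-H1 and B-H2 shared a gap of 206.8 kb, nub and pdm2 one of 192.5 kb, and lbe and lbl one of 122.6 kb. Members that share a gap are not independent of each other. At the other end, the gap at NK7.1 was 2.74 kb, between its 2 strongest peaks.

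Some optimal peaks outside the bodies had a homeobox gene as their nearest protein-coding gene. Counting every distance, 9 of the 2537 optimal peaks did, at 6 members. Of these peaks 5 lay inside the bodies with 2 kb around and 4 outside. The members are 47 of the 13945 protein-coding genes. By this count their part of the peaks was close to their part of the genes, unlike in the counts near TSSs. The strongest of the 4 lay at 4:497675-498098, 3923 bp upstream of the TSS of zfh2, a large gene for a protein with zinc fingers and homeodomains. Its pooled signal was 327.2 at rank 261, above that of each of the 8 peaks described, and its replicate signals were 84.5, 136.4 and 106.5 at ranks 320, 168 and 413. The head gene ems had a peak 13064 bp downstream of its TSS at 3R:13914705-13915128, with a pooled signal of 194.3 at rank 860 and replicate signals of 52.5, 68.0 and 73.7. Both peaks ranked high in each replicate. The head gene oc (ocelliless) had 2 weaker peaks around it. One at X:8627166-8627589, beyond its 3′ end, had a pooled signal of 118.2 and replicate signals of 29.3, 22.4 and 60.6, and one at X:8656595-8657018, 6126 bp upstream, had 115.5 and replicate signals of 39.6, 29.5 and 43.3. Replicate 2 ranked these at 9399 and 5012, far down its list. These distances do not say which gene a peak acts on.

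Sites were also counted at 39 other homeobox genes of a second list, among them Hox and Pax genes. The counts hold for these listed genes only, not for every homeobox gene outside the main list. Of the 39, 3 (7.69%) carried a site near a TSS, and 7 (17.9%) an optimal peak in the body or within 2 kb. The 3 were eyg, the tagged gene itself, with a pooled signal of 177.0 at 203 bp from a TSS, PHDP with 113.3 at 244 bp and ey with 113.0 at 751 bp. The signals of PHDP and ey lay just above the lowest optimal signal, 108.3. Both shares lay under those of all protein-coding genes given above, 14.7% and 23.9%. In a list of 39 these differences are a few genes, and the counts were not split by gene span.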

How the data were processed

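Peak lists of 3 biological replicates of eyg-GFP embryo ChIP-seq, of their pool and of the optimal list were used on build dm6. Per the labels, sonicated chromatin of 200 to 800 bp was precipitated with an antibody against GFP. The listings deposited with each library say that regions were called in each replicate against a control and on the pool, and that the optimal list was derived by the irreproducible discovery rate, which compares ranks between replicates. Neither aligner nor peak caller is named there, and their versions are likewise not given here. The authors' signal per region, whose scale is not stated, was used to describe and rank regions within a list. The deposited −log10 q-values were used for 1 alternative, and the deposited summit offsets gave positions. The lists used give no read counts, and library depth is unknown. The control and the lists on the build dm3 were not used here.

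Gene models came from Ensembl release 115 (BDGP release 6.54). RefSeq sequence of the same assembly was used, and the start and end of 47 of 47 members were equal in RefSeq and Ensembl. Coordinates are 1-based. A summit was set against TSSs (within 1 kb), gene bodies (with 2 kb around) and 10 motifs (within 100 bp, both strands). Counts of members or peaks were read against shares over all protein-coding genes or all optimal peaks, and no set test was made. The assignment of summits to genes was tested on simulated data. Named were all members with an optimal peak, the 10 others of highest pooled signal near a TSS, and genes nearest to or within 1 kb of a member peak. A gene that this rule selects, the nearest to a member peak, is not reported here. The members, lists, motifs and alternatives were chosen with earlier results of these data known. Alternatives changed distances, flanks, the lists, windows and the replicates used. Python 3.11.15, pandas 2.3.3, numpy 2.4.6 and matplotlib 3.10.9 were used.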

Additional observations from a re-analysis of the deposited data

How the results depend on the processing

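Of 25 alternatives, 17 kept a value within the limits set for it and 8 moved it. The count of 2 members with a site near a TSS became 1 (NK7.1) with the 50% of optimal peaks of highest signal, against 8.17% of all genes. It was 1 (NK7.1) when only the gene of the nearest TSS counted, against 10.6%, since T48 is nearer to the ro peak. It became 25 (53.2%) with all pooled candidates, a list that holds background, against 56.4% of all genes. Requiring a call among the highest of both other replicates gave from 1 to 2 members. The count was 1 without replicate 1, against 10.9% of all genes, and 1 without replicate 2, against 10.3%. In both ro was lost, as its peak ranked low in replicate 3. Without replicate 3 the count was 2, against 10.1%. In each of these settings the members' share lay below that over all genes, but with all pooled candidates the shares lay near each other. The count of 4 members with a peak in the body or 2 kb around was 3 with no flank, against 8.43% of all genes, and became 8 with a flank of 5 kb, adding unpg, oc, Pph13 and zfh2, against 34.2% of all genes. The mean share of peaks among the highest calls of each replicate, 75%, became 50% with 0.5 times as many calls, and ran from 68.8% to 87.5% without each replicate. The count of peaks with TAATTA was 0 within 50 bp of the summit, against 7.65% of all optimal peaks. No paired analysis was possible because the 3 replicates form 1 group. With 8 peaks at 4 genes, 1 peak moves a share by much, and the unknown depth sets no limit for genes with no candidate: a site in few cells or at 1 stage of the embryos may not be detectable here.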
